A study of Mus musculus with 24 samples.

Results

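The common gamma chain cytokine receptors are surface receptors of lymphocytes that share 1 signalling subunit, the common gamma chain. Their genes followed here are Il2rg, which encodes that shared chain, and Il2ra, Il2rb, Il15ra, Il7r, Il4ra and Il21r, which encode the chains it pairs with. These 7 genes were taken by symbol from a table of read counts for 24421 genes. The rule goes by name and reads no measured value, all 7 were in the table, and all 7 passed the low-count filter in both cell types.

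Transcripts were counted in T cells of bone marrow, sorted as CD8 or as CD4, from female CByB6F1 mice. The mice had immune-mediated bone marrow failure (BMF), a disease model in which T cells damage the marrow. All groups carried the disease, so no group shows T cells of healthy marrow. Each cell type had 4 groups: untreated, cyclosporine (CSA, an inhibitor of calcineurin), low-dose ruxolitinib (RUX, an inhibitor of the Janus kinases JAK1 and JAK2) and both drugs (RUX+CSA). The mice were 2 to 5 months old and each library pooled cells of 2 to 3 mice of a group, so no value belongs to a single mouse. There were 3 pools per group, numbered 1 to 12 in CD8 and 13 to 24 in CD4, and libraries are named by group and pool number. Drug doses, the length of treatment and the way in which BMF was induced are not given in the sources used here.

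Receptors of this family have no kinase of their own. JAK1 sits on the cytokine-specific chain and JAK3 on the common gamma chain, and after a cytokine binds they activate STAT proteins, mainly STAT5 for IL-2, IL-7 and IL-15, STAT6 for IL-4 and STAT3 for IL-21. Ruxolitinib blocks the JAK1 step, while cyclosporine blocks calcineurin and so keeps the NFAT factors, which drive IL-2 and other genes after antigen contact, out of the nucleus. Il2ra (CD25) raises affinity for IL-2 and is high on activated and regulatory T cells, Il2rb serves IL-2 and IL-15, Il15ra presents IL-15 to neighbouring cells, and Il7r marks naive and memory cells.

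Libraries held 16.9 to 34.6 M read pairs in genes, and a count of 3 stood for 0.0868 to 0.177 CPM (read pairs relative to library size, scaled by the trimmed mean of M values, TMM). The sort labels held: Cd8a and Cd8b1 together stood at 2072 to 2841 CPM in CD8 and 9.87 to 27.7 CPM in CD4 libraries, and Cd4 and Cd40lg together at 0.749 to 6.78 CPM in CD8 and 1289 to 1913 CPM in CD4 libraries. RNA of other marrow cells moved with treatment, since 13 neutrophil genes summed to 12.6 to 1467 CPM in untreated CD8 pools, against 4357 to 5872 CPM in those given both drugs. In CD4 cells the untreated pools had sums of 94.1 to 8643 CPM and the RUX+CSA pools sums of 8223 to 10280 CPM. When each library was compared over all tested genes with the mean of the others of each group, 11 of 12 CD4 libraries but 6 of 12 CD8 libraries lay nearest to their own group. All CD8 libraries of the CSA and RUX groups lay nearer to another group. The lowest correlations with their own were in CSA 6 (r = -0.58), nearest to RUX (r = 0.20), and RUX 7 (r = -0.57), nearest to RUX+CSA (r = 0.19). The 10 NK cell genes summed to 1002 and 1038 CPM in CSA 4 and 5 but 514 CPM in CSA 6. In RUX 7 they summed to 1003 CPM, against 451 and 476 CPM in RUX 8 and 9. Whether the labels of these 2 libraries are right was not tested, so some CD8 values, though not all, are also given without them.

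The genes lie on 4 chromosomes of the mm10 build. Il2ra (chromosome 2, 11642792 to 11693194) and Il15ra (chromosome 2, 11705293 to 11733985) are neighbours on the plus strand, 12098 bases apart, and Il4ra (chromosome 7, 125552282 to 125579474) and Il21r (chromosome 7, 125603429 to 125633570) are another such pair, 23954 bases apart. Il2rg (X, 101264385 to 101268255), Il2rb (15, 78480549 to 78495066) and Il7r (15, 9506159 to 9529876) are on the minus strand. By the outer bounds of the genes, only Il2rb overlaps another annotated gene, the microRNA gene Mir3473a on the same strand. Whether their exons share bases was not checked. RefSeq promoter windows of build GRCm38.p6 (the sequence of mm10), from 250 bases before to 50 bases after a start site, matched 6 of the 7 symbols.

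Of these windows, 4 are shown up to 10 bases past the start. Il2rg and Il21r are shown because they passed the test in opposite directions with cyclosporine in CD4 cells, and capitals mark the NFAT core GGAAA on either strand. Il2ra is shown with the same capitals as the gene with the widest gap between cell types. In Il7r, capitals mark the STAT motif TTCNNNGAA, the only match of that motif in the windows of the 6 genes.
Il2rg chrX:101268246-101268505, minus strand: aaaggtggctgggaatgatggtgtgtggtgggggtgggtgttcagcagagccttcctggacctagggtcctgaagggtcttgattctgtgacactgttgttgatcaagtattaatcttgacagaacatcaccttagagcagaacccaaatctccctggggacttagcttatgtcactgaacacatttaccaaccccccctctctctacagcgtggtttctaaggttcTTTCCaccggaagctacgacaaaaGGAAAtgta
Il21r chr7:125603179-125603438, plus strand: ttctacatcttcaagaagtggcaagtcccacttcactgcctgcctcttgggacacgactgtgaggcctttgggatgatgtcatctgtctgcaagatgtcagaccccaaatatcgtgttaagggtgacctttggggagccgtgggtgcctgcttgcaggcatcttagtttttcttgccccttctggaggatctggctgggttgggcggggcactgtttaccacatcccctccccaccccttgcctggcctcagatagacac
Il2ra chr2:11642542-11642801, plus strand: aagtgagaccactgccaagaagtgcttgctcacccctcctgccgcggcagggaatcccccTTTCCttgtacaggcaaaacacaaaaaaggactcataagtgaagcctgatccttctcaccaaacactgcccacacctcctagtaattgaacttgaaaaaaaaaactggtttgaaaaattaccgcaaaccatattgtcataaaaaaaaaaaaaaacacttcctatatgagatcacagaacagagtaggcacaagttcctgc
Il7r chr15:9529867-9530126, minus strand: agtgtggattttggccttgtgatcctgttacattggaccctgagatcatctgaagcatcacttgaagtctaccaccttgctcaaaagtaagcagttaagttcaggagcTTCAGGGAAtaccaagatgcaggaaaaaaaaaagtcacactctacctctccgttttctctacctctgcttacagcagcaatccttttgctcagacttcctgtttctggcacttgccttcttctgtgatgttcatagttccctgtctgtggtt
The Il2rg window held 2 matches of GGAAA, at positions -23 and 1 counted from the start base at 0, and the Il2ra window held 1, at position -190. The Il21r window had no run of these letters, and the first Il15ra window had 5. GGAAA is short and occurred in 61.3% of 32851 windows of 300 bases, so a match sets none of these genes apart. TTCNNNGAA, which in Il7r began at position -142, occurred in 8.3% of the windows. Of 2 further motifs searched on both strands, the RUNX motif TGTGGT matched once each in Il2rg, Il7r and Il21r (16.8% of windows) and the IRF motif GAAANNGAA once in each Il15ra window (8.56%). Motifs can overlap, since GGAAA ends in the GAAA that opens the IRF motif. A match is a description of letters only.

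The shared chain and the IL-2 receptor beta chain dominated the family in both cell types, on the scale of CPM per kilobase of gene model. In CD8 libraries Il2rb averaged 863 ± 150 and Il2rg 627 ± 80.2 CPM per kilobase (SD, n = 12), and Il2rb was the higher in 11 of 12 libraries. In CD4 libraries the order turned, with Il2rg at 997 ± 143 and Il2rb at 624 ± 45.8, and Il2rg was the higher in 12 of 12. Il21r came next in each, at 110 ± 13.5 in CD8 and 83.2 ± 11.1 in CD4. The remaining chains were lower. In CD8 cells Il7r was at 19.3 ± 10.1, Il15ra at 17.0 ± 2.17, Il4ra at 11.5 ± 1.53 and Il2ra at 4.47 ± 1.31 CPM per kilobase. Il7r exceeded Il15ra in 5 of 12 CD8 libraries, so their order was not fixed. In CD4 cells Il7r was at 58.8 ± 27.3, Il2ra at 26.95 ± 10.7, Il15ra at 16.4 ± 3.35 and Il4ra at 16.1 ± 2.82, and Il15ra and Il4ra could not be ordered (Il15ra higher in 6 of 12 libraries).

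**Figure D1:**
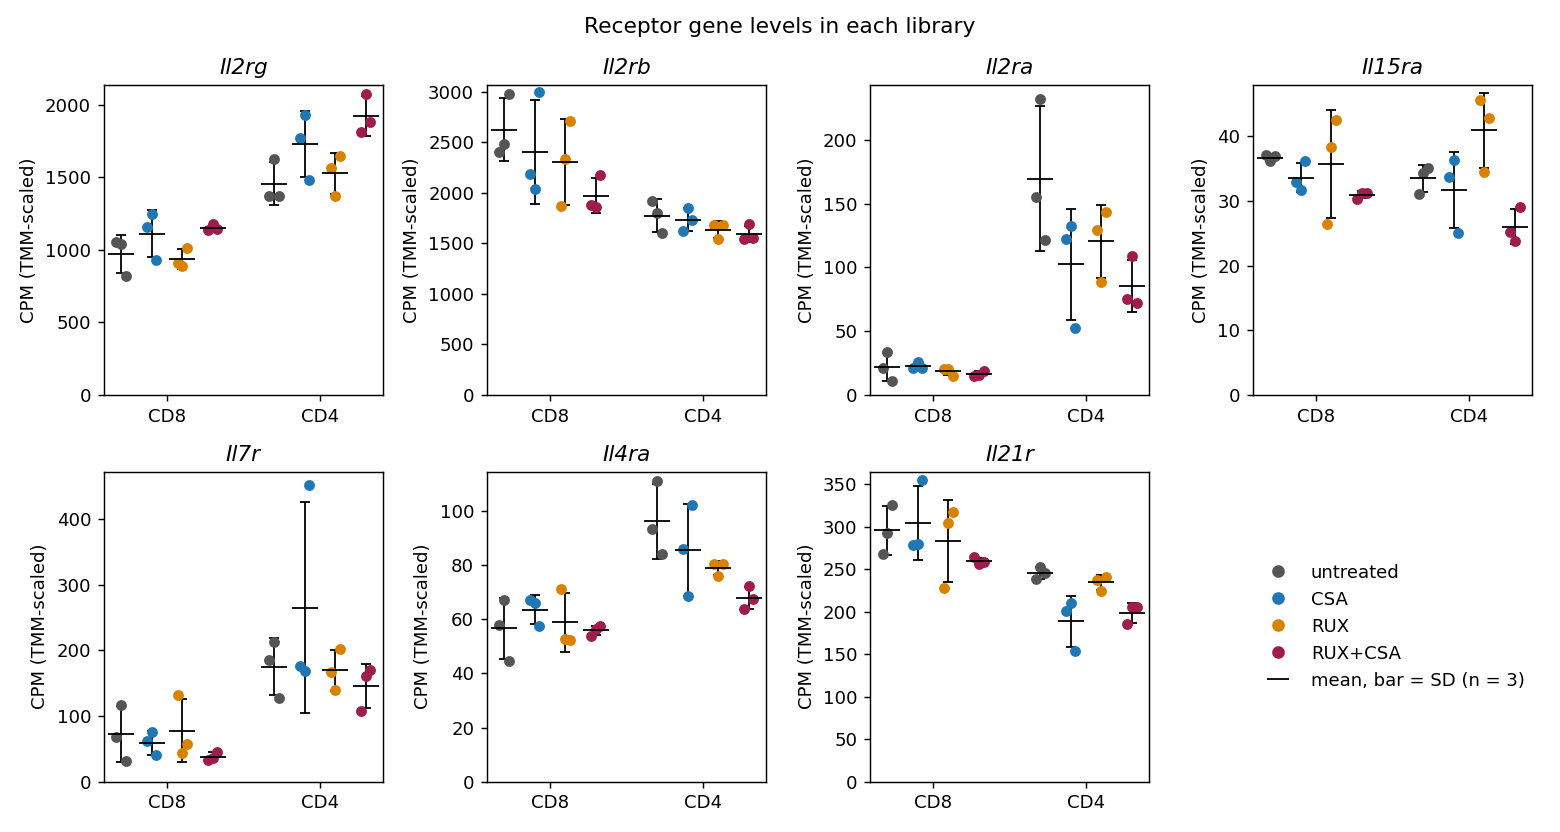
TMM-scaled CPM (y axis, from 0, a different scale per panel) of each receptor gene in every library, by cell type (x axis) and treatment (colour); points are pools and bars are mean and SD of 3. Il2ra, Il7r, Il4ra and Il2rg sit higher in CD4 cells, and Il21r in CD4 cells is lower in all 6 libraries with cyclosporine (154 to 211 CPM) than in the 6 without it (224 to 253 CPM).

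In untreated mice, CD4 cells held more Il2ra, Il4ra and Il2rg transcript and CD8 cells more Il2rb. Of the 7 genes, 1 was higher and 3 were lower in CD8 than in CD4 cells at an adjusted p below 0.05 (edgeR quasi-likelihood F test, Benjamini-Hochberg over 13476 genes), where 17.2% of all genes were called, 7.2% as higher and 10% as lower. In bulk samples, a smaller share of cells that carry a transcript and less transcript per cell cannot be told apart. Marker genes were counted in this contrast too, beside the same 10% lower and 7.2% higher of all genes. Lists with 1 gene lower are near that share. Of 12 T cell identity genes, 5 were lower in CD8. Lower in CD8 were 9 of 13 macrophage genes (median log2 -2.75), 2 of 8 stem and progenitor, 1 of 13 neutrophil and 1 of 11 B cell genes. So were 1 of 8 erythroid and 1 of 8 basophil and mast cell genes. Higher in CD8 were 4 of 8 NK cell genes, and 0 of 6 platelet genes passed. The part of other cells in the receptor differences was not tested.

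Il2ra, the inducible IL-2 receptor alpha chain, stood at 20.8, 33.4 and 11.1 CPM in untreated CD8 and at 155, 232 and 121 CPM in untreated CD4 pools. The lowest CD4 pool was above the highest CD8 pool. The fitted CD8 level was 0.128 of the CD4 level (log2 difference -2.97, SE 0.38, adjusted p = 2.85e-05). Il4ra, the signalling chain for IL-4, was at 58.0, 67.2 and 44.5 CPM in CD8 and at 93.2, 111 and 84.0 CPM in CD4 pools, again without overlap (log2 -0.77, SE 0.15, adjusted p = 0.00119). Il2rg, the shared chain, was at 1051, 1040 and 820 CPM in CD8 and at 1371, 1625 and 1373 CPM in CD4 pools (log2 -0.59, SE 0.12, adjusted p = 0.00174). All 3 CD8 pools were below all 3 CD4 pools.

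Il2rb, the chain shared by the IL-2 and IL-15 receptors, ran the other way, with 2404, 2485 and 2981 CPM in CD8 and 1917, 1802 and 1599 CPM in CD4 pools (log2 0.57, SE 0.14, adjusted p = 0.00583). Every CD8 pool was above every CD4 pool. The other 3 genes did not pass. Il7r, the IL-7 receptor alpha chain, was at 68.7, 116 and 32.2 CPM in CD8 and 186, 212 and 127 CPM in CD4 pools (log2 -1.28, 95% interval -2.28 to -0.27, adjusted p = 0.0744). Il21r, the IL-21 receptor, was at 268, 292 and 326 against 238, 253 and 246 CPM (log2 0.27, adjusted p = 0.136), and Il15ra, the IL-15 binding chain, at 37.0, 36.1 and 36.9 against 31.1, 34.4 and 35.1 CPM (log2 0.13, 95% interval -0.18 to 0.45, adjusted p = 0.594). Il7r passed without untreated pool 2 (log2 -1.82, adjusted p = 0.029), without CSA 6 and RUX 7 (adjusted p = 0.0473, with Il21r at 0.0481), and by DESeq2 (0.0403) and limma voom (0.0385). Library ranges were apart for all 7 genes and for 35% of all genes.

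Under treatment the same contrast called 6 of 7 genes with CSA (background 26.3%), 3 with RUX (17.9%) and 4 with both drugs (27.8%). With CSA, 2 were higher in CD8 and 4 lower (13.6% and 12.8% of all genes), with RUX 1 was higher and 2 lower (8.56% and 9.32%), and with both drugs 1 was higher and 3 lower (14.8% and 13%). Library ranges were apart for 6, 5 and 7 genes in these contrasts, and for 44.2%, 34.5% and 45.1% of all genes. Il2ra was lower in CD8 cells each time, with log2 differences of -2.19 (CSA), -2.69 (RUX) and -2.39 (both drugs), as was Il2rg, with -0.64, -0.71 and -0.74. Adjusted p for these 6 lay between 6.72e-05 and 0.000655. No alternative ended a call of Il2ra or Il2rg in any of the 4 treatments. A fit with the mean of other-cell markers as a covariate was not run across cell types. Il7r passed with CSA (log2 -2.16, adjusted p = 0.00366) and with both drugs (log2 -1.94, adjusted p = 0.00686) and missed with RUX (log2 -1.13, adjusted p = 0.113).

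Il21r was higher in CD8 cells in CSA (log2 0.69, adjusted p = 0.00037) and RUX+CSA pools (log2 0.39, adjusted p = 0.0221), but the call in RUX+CSA was lost without pool 10, 11, 12, 22 or 24 (adjusted p 0.057 to 0.103). Il2rb passed in CSA (log2 0.47, adjusted p = 0.0136) and RUX (log2 0.50, adjusted p = 0.0139) and missed in RUX+CSA (log2 0.31, adjusted p = 0.0926). Its CSA call was lost without pool 6 (0.12) or 16 (0.056), without CSA 6 and RUX 7 (0.0578) and with only the groups compared in the fit (0.0544), all as adjusted p. Its RUX call was lost without pool 9 (0.0927) or 20 (0.0534) and with only the groups compared (0.0564), while in RUX+CSA it passed with only the groups compared (0.0131) and without CSA 6 and RUX 7 (0.0173). Il4ra, at -0.42 with RUX (adjusted p = 0.0542) and -0.28 with RUX+CSA (adjusted p = 0.174), passed in CSA (log2 -0.43, adjusted p = 0.0389), and that call was lost without pool 4, 5, 6, 16 or 18 (adjusted p 0.0629 to 0.224), without CSA 6 and RUX 7 (0.0961) and with only the groups compared (0.0819). Without RUX 7 the count in RUX was 6 of 7, with Il7r (adjusted p = 0.0297), Il4ra (0.0146) and Il21r (0.0226) added. The share of all genes called in that fit is not given here. Il15ra passed in none of the 4 treatments. These contrasts use different libraries of each cell type, and whether a drug moved a gene differently in the cell types was tested separately, with 0 of 7 genes called for RUX+CSA (background 0.0223%), CSA (0%) and RUX (0%). The smallest adjusted p in these tests was 0.311, for Il4ra with RUX+CSA. An unadjusted p below 0.05 was found for 1, 1 and 0 of the 7 genes and for 1906, 1005 and 441 of all 13476 genes.

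**Figure D2:**
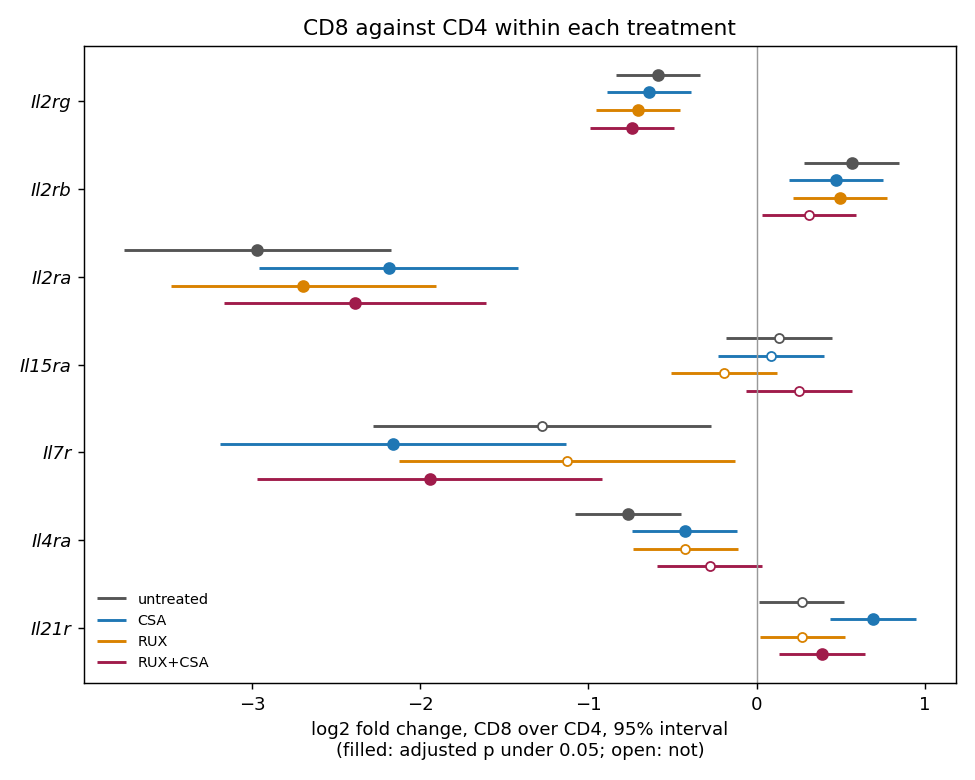
Fitted log2 difference of CD8 over CD4 (x axis) for each receptor gene (y axis) within each treatment (colour), with 95% intervals; filled circles passed an adjusted p of 0.05. Il2ra and Il2rg lie below 0 and are filled in all 4 treatments, while Il15ra is open in all 4 and its intervals include 0.

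Against untreated cells, no receptor gene passed the test with any treatment in either cell type. In CD8 cells 0 of 7 passed with RUX+CSA, where 15.7% of all genes did, and 0 of 7 with CSA or RUX, where 0% did. Leaving out CSA 6 and RUX 7 turned the sign of some CD8 values. With RUX these were Il15ra (log2 -0.042 to 0.13), Il7r (0.10 to -0.53), Il4ra (0.052 to -0.12) and Il21r (-0.067 to 0.059). With CSA it was Il21r (0.042 to -0.083). Adjusted p for these values without the pair lay between 0.649 and 0.895. In CD4 cells 0 of 7 passed with RUX+CSA (background 1.77%), CSA (1.48%) and RUX (0%). At an unadjusted p below 0.05, counts in the order RUX+CSA, CSA and RUX were 1, 0 and 0 of 7 in CD8 and 5, 2 and 0 of 7 in CD4. Over all genes they were 4270, 1233 and 744 of 12684 in CD8 and 2233, 2130 and 548 of 13175 in CD4. In CD4 cells DESeq2 called 2 with RUX+CSA (Il2rg and Il4ra) and 1 with CSA (Il21r), its share over all genes not being given here. Group means were lowest in RUX+CSA for 6 of 7 genes in CD8 and 5 of 7 in CD4 cells, the exceptions being Il2rg in both, which was highest there, and Il21r in CD4. Library ranges were apart from untreated for 0 genes in CD8 with CSA (17.1% of all genes) or RUX (10.9%), and in CD4 for Il21r with CSA (20.4%) and Il4ra with RUX (8.84%). Of the 21 steps between neighbouring group means in each cell type, 19 in CD8 and 17 in CD4 were smaller than the larger SD of the 2 groups.

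**Figure D3:**
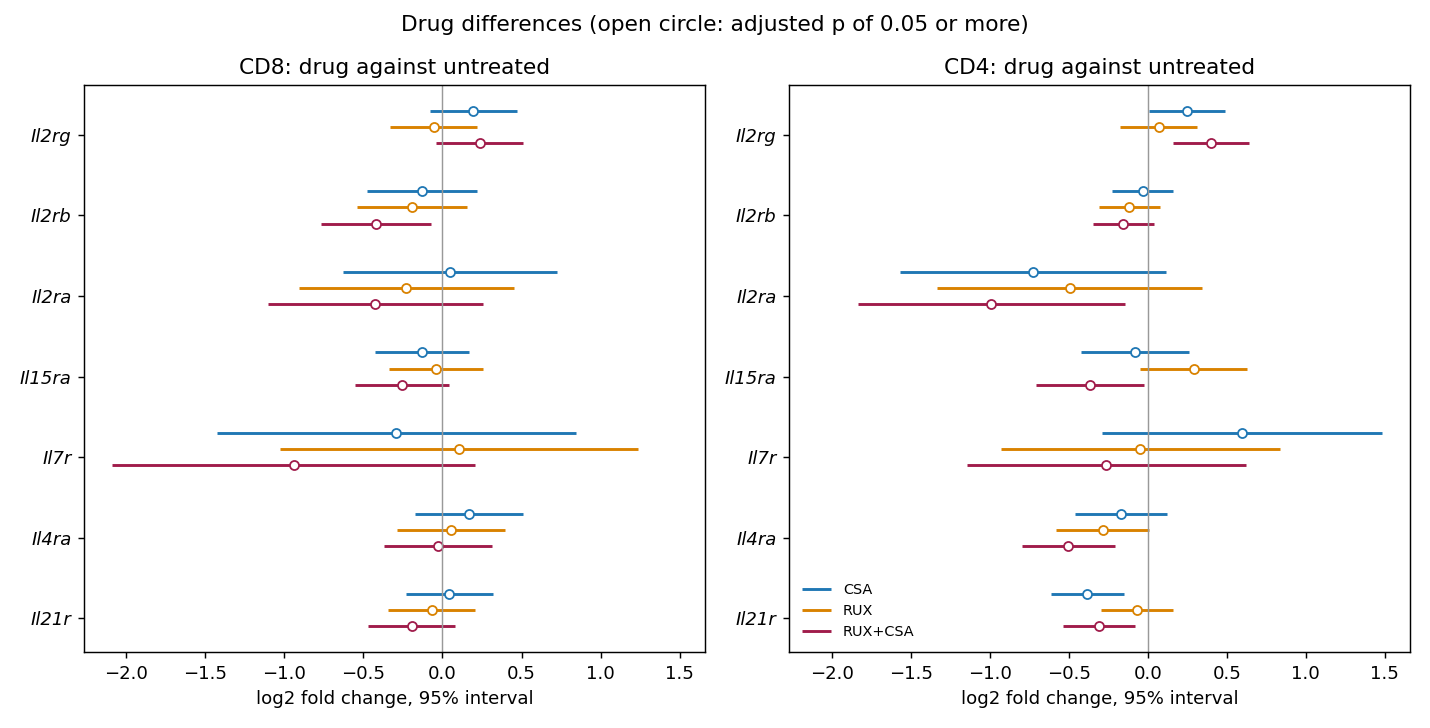
Fitted log2 fold change against untreated (x axis) for each receptor gene (y axis) with CSA, RUX and RUX+CSA, with 95% intervals, CD8 left and CD4 right. All circles are open, that is, no gene passed, and in CD4 cells 5 of the 7 RUX+CSA intervals leave out 0.

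With both drugs, CD4 cells had the widest spread of receptor changes, with library ranges apart from untreated for 5 of 7 genes and for 21.8% of all genes. Il4ra was at 93.2, 111 and 84.0 CPM untreated and 63.8, 72.1 and 67.6 CPM in RUX+CSA pools (log2 -0.50, SE 0.14, adjusted p = 0.0739). All 3 treated pools were below all untreated ones. Il2rg was at 1371, 1625 and 1373 CPM untreated and 1809, 2074 and 1882 CPM with both drugs, with every treated pool above every untreated one (log2 0.40, SE 0.11, adjusted p = 0.0818). Il2ra was at 155, 232 and 121 CPM untreated and 75.5, 109 and 71.8 CPM with both drugs, also apart (log2 -0.99, 95% interval -1.83 to -0.14, adjusted p = 0.218). Il21r (log2 -0.31, adjusted p = 0.154) and Il15ra (log2 -0.36, adjusted p = 0.261) lay below untreated in every pool, and Il2rb (log2 -0.16, adjusted p = 0.414) and Il7r (log2 -0.26, adjusted p = 0.80) overlapped it and changed sign with the mean of other-cell markers as a covariate (log2 0.028 and 0.40). The median log2 change of the 7 genes was -0.31, beside -0.0069 over all genes tested. Of other-cell markers in this contrast, 4 of 10 B cell, 2 of 8 NK cell, 2 of 8 basophil and mast cell and 1 of 8 erythroid genes rose (1.02% of all genes). Of 13 macrophage genes 4 fell (0.744% of all genes), and 0 of 13 neutrophil, 0 of 6 platelet and 0 of 7 stem and progenitor genes passed. Their part in the receptor values was not tested.

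Outside the alternative fits, receptor genes passed for treatment only where the groups were joined by drug. The cyclosporine effect was the mean of the CSA and RUX+CSA groups minus the mean of the untreated and RUX groups, 6 libraries against 6, and in CD4 cells 2 of 7 genes passed, beside 7.16% of all genes. Il21r was lower with cyclosporine (3.39% of all genes were) and Il2rg was higher (3.76% were). Il21r stood at 201, 211 and 154 CPM with CSA alone and at 185, 206 and 205 CPM with both drugs, against 238, 253 and 246 CPM untreated and 238, 224 and 241 CPM with RUX. Against untreated alone, the CSA pools gave -0.38 on the log2 scale (SE 0.11, adjusted p = 0.0993). All 6 libraries with cyclosporine were below all 6 without it, a separation that 3.84% of all genes showed in either direction (log2 -0.31, SE 0.075, adjusted p = 0.0254).

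Il2rg stood at 1773, 1930 and 1483 CPM with CSA alone and at 1809, 2074 and 1882 CPM with both drugs, against 1371, 1625 and 1373 CPM untreated and 1565, 1369 and 1648 CPM with RUX. Of the libraries with cyclosporine, 5 of 6 were above every library without it, and CSA 18 was not (log2 0.29, SE 0.080, adjusted p = 0.042). The Il2rg call was lost in 9 of 12 fits that left out 1 pool (13, 15, 16, 17, 19, 20, 22, 23 or 24), with adjusted p between 0.0657 and 0.111, and the Il21r call in 2 of 12, without RUX 19 (0.0575) or RUX+CSA 22 (0.0624). RNA of other cells also moved with cyclosporine. Of the tested markers, 3 of 10 B cell, 2 of 8 erythroid, 2 of 8 NK cell, 2 of 8 basophil and mast cell, 2 of 7 stem and progenitor and 1 of 13 neutrophil genes were higher with it, and of 13 macrophage genes 1 was higher and 1 lower. B cell genes summed to 39.0 to 132 CPM with both drugs, but to 18.2 to 27.3 CPM with CSA alone, 18.6 to 19.7 CPM untreated and 15.6 to 21.7 CPM with RUX. Erythroid genes summed to 249 to 421 CPM with CSA alone, 138 to 440 CPM with both drugs, 2.61 to 71.5 CPM untreated and 34.4 to 72.6 CPM with RUX, the globin genes Hba-a1, Hbb-bs and Hbb-bt being at 0 throughout. NK cell genes summed to 233 to 292 CPM with cyclosporine and 129 to 201 CPM without, with Klra8 and Klra4 at 0. Basophil and mast cell genes summed to 19.1 to 85.9 CPM with CSA alone, 83.6 to 157 CPM with both drugs, 6.57 to 16.1 CPM untreated and 29.3 to 47.0 CPM with RUX. Neutrophil sums overlapped, at 3470 to 16955 CPM and 94.1 to 8643 CPM. With the mean of 82 other-cell markers as a covariate, log2 values were -0.30 for Il21r (adjusted p = 0.301) and 0.39 for Il2rg (adjusted p = 0.187), where 66.7% of the variance of that mean lay between the groups.

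The other 5 genes did not pass for cyclosporine in CD4 cells. Il15ra was at 23.8 to 36.4 CPM (median 27.1) with it and 31.1 to 45.6 CPM (median 34.7) without it, with 4 of 6 libraries below all without (log2 -0.37, adjusted p = 0.0645, and 0.0372 by DESeq2). Il2ra was at 52.6 to 132 CPM (median 92.0) with it and 88.4 to 232 CPM (median 136) without (log2 -0.61, 95% interval -1.20 to -0.017, adjusted p = 0.209). Il4ra (log2 -0.19, adjusted p = 0.258), Il7r (log2 0.19, adjusted p = 0.738) and Il2rb (log2 -0.035, 95% interval -0.17 to 0.10, adjusted p = 0.793, and 0.092 with the marker covariate) overlapped. Il7r in CD4 CSA pools rested on 1 library, with 175, 168 and 451 CPM, the last in CSA 18, and without that library the cyclosporine effect on Il7r was -0.12.

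For ruxolitinib joined in the same way, 0 of 7 genes passed in CD4 cells (background 0.25%). Il4ra was the nearest, at 63.8 to 80.6 CPM with it and 68.5 to 111 CPM without it (log2 -0.31, 95% interval -0.52 to -0.10, adjusted p = 0.287). An unadjusted p below 0.05 was found for 1 of 7 genes and for 1294 of all 13175 genes. Adding RUX to CSA called 0 of 7 genes (background 0.281%), and adding CSA to RUX called 0 of 7 (background 0.782%). In the latter contrast Il15ra was at 45.6, 34.4 and 42.9 CPM with RUX and 25.1, 23.8 and 29.1 CPM with RUX+CSA, apart in all pools (log2 -0.65, SE 0.16, adjusted p = 0.0719, and 0.0137 by DESeq2). Library ranges were apart for 0 of 7 genes in the former (16.9% of all genes) and 4 of 7 in the latter (22.1%). In the same order 1 and 3 of the 7 genes had an unadjusted p below 0.05, as did 1315 and 1881 of all 13175 genes.

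In CD8 cells with both drugs, Il2rb had the smallest adjusted p of the 7 genes and Il7r the largest fitted change. Il2rb was at 2404, 2485 and 2981 CPM untreated, 2182, 2033 and 2993 CPM with CSA, 1868, 2336 and 2713 CPM with RUX, and 1883, 1862 and 2173 CPM with RUX+CSA. All 3 RUX+CSA pools were below the untreated ones, while 1 CSA pool and 1 RUX pool were as high as untreated ones. The change with both drugs was -0.42 on the log2 scale (SE 0.16, adjusted p = 0.0896), and without CSA 6 and RUX 7 in the fit it was -0.42 with an adjusted p of 0.0106. Il15ra was at 37.0, 36.1 and 36.9 CPM untreated and 30.3, 31.3 and 31.3 CPM with both drugs, apart in all pools (log2 -0.25, adjusted p = 0.21, and 0.0247 without those libraries). Neither of these libraries is in the groups compared, so they act on this contrast only through the shared estimate of the spread and the scaling.

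Il7r in CD8 cells varied most. It was at 68.7, 116 and 32.2 CPM untreated, 61.8, 75.9 and 39.8 CPM with CSA, 132, 43.9 and 57.4 CPM with RUX (132 in RUX 7), and 32.5, 36.4 and 45.1 CPM with RUX+CSA. Untreated pool 3 alone was as low as the RUX+CSA pools (log2 -0.94, 95% interval -2.09 to 0.21, adjusted p = 0.226). With the mean of other-cell markers as a covariate, of whose variance 83.3% lay between the CD8 groups, the fitted value turned to 1.04 (adjusted p = 0.984). Il2ra stayed low everywhere, between 11.1 and 33.4 CPM over the 12 CD8 libraries (log2 -0.43 with both drugs, 95% interval -1.10 to 0.25), and its sign turned with that covariate (log2 1.63) and without untreated pool 2 (log2 0.023). Il21r was at 268, 292 and 326 CPM untreated and 264, 257 and 259 CPM with both drugs (log2 -0.20, adjusted p = 0.298). Its library ranges were apart, as were those of Il2rg, Il2rb and Il15ra, 4 of 7 beside 43.4% of all genes. Il4ra (log2 -0.028, 95% interval -0.37 to 0.31) and Il2rg (log2 0.23, 95% interval -0.040 to 0.51) had adjusted p of 0.917 and 0.211, and the sign of Il4ra turned in 4 alternatives.

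Joined by drug in CD8 cells, 0 of 7 genes passed for cyclosporine (background 2.36%) and 0 of 7 for ruxolitinib (0.56%). At an unadjusted p below 0.05 there were 1 and 0 of the 7 genes, and 3043 and 1995 of all 12684 genes. No gene of the 7 had all libraries with cyclosporine on one side of those without it, as 1.34% of all genes did. Il2rg again stood higher with cyclosporine, at 929 to 1246 CPM (median 1149) against 820 to 1051 CPM (median 960), with 5 of 6 libraries above all without it (log2 0.24, SE 0.089, adjusted p = 0.13). The exception was CSA 6, and without it the adjusted p was 0.0488. Without CSA 6 and RUX 7, 3 of 7 genes passed: Il2rg (log2 0.29, adjusted p = 0.0212), Il2rb (log2 -0.33, adjusted p = 0.0128) and Il15ra (log2 -0.28, adjusted p = 0.00641). These 2 libraries were chosen from these same data, and the share of all genes called without them is not given here. Without RUX 7 alone Il15ra passed (adjusted p = 0.0249). Il21r, called in CD4 cells, had a cyclosporine effect of -0.043 in CD8 cells (95% interval -0.24 to 0.15, adjusted p = 0.795), and its sign turned without RUX 9. Adding RUX to CSA called 0 of 7 (background 0.0788%) and adding CSA to RUX 0 of 7 (background 0%). At an unadjusted p below 0.05 there were 0 and 1 of the 7 genes, and 1593 and 2198 of all 12684 genes. When CSA was added to RUX, Il15ra passed without CSA 6 and RUX 7 (log2 -0.38, adjusted p = 0.0144).

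The balance of the chains was followed as a ratio of levels per kilobase. Il2rb over Il2rg, the 2 signalling chains of the IL-2 and IL-15 receptors, was 0.755 ± 0.095 untreated, 0.625 ± 0.083 with CSA, 0.662 ± 0.032 with RUX and 0.511 ± 0.012 with RUX+CSA in CD4 cells (SD, n = 3). The RUX+CSA pools (0.502 to 0.525) were below all others. In CD8 cells it was 1.71 ± 0.46, 1.39 ± 0.53, 1.51 ± 0.21 and 1.06 ± 0.10 in the same order, and RUX+CSA pools (0.976 to 1.17) were below the untreated (1.41 to 2.24) but not all CSA pools (1.01 to 1.99). This ratio is a description, with no test.

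Il2ra in CD4 cells was set beside Foxp3, the defining factor of regulatory T cells, which carry much CD25. Foxp3 was at 71.6 ± 21.4 CPM in untreated CD4 cells. It fell to 35.9 ± 3.35 CPM with CSA (log2 -0.99, SE 0.17, adjusted p = 0.0127) and to 34.8 ± 5.17 CPM with both drugs (log2 -1.04, SE 0.18, adjusted p = 0.009), and stood at 69.2 ± 1.71 CPM with RUX. The ratio of Il2ra to Foxp3 per kilobase was 2.32 ± 1.23, 2.55 ± 1.16, 1.55 ± 0.40 and 2.25 ± 0.88 in untreated, CSA, RUX and RUX+CSA pools, and all 4 ranges overlapped. Il2ra itself passed neither with CSA (adjusted p = 0.382) nor with both drugs (adjusted p = 0.218).

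**Figure D4:**
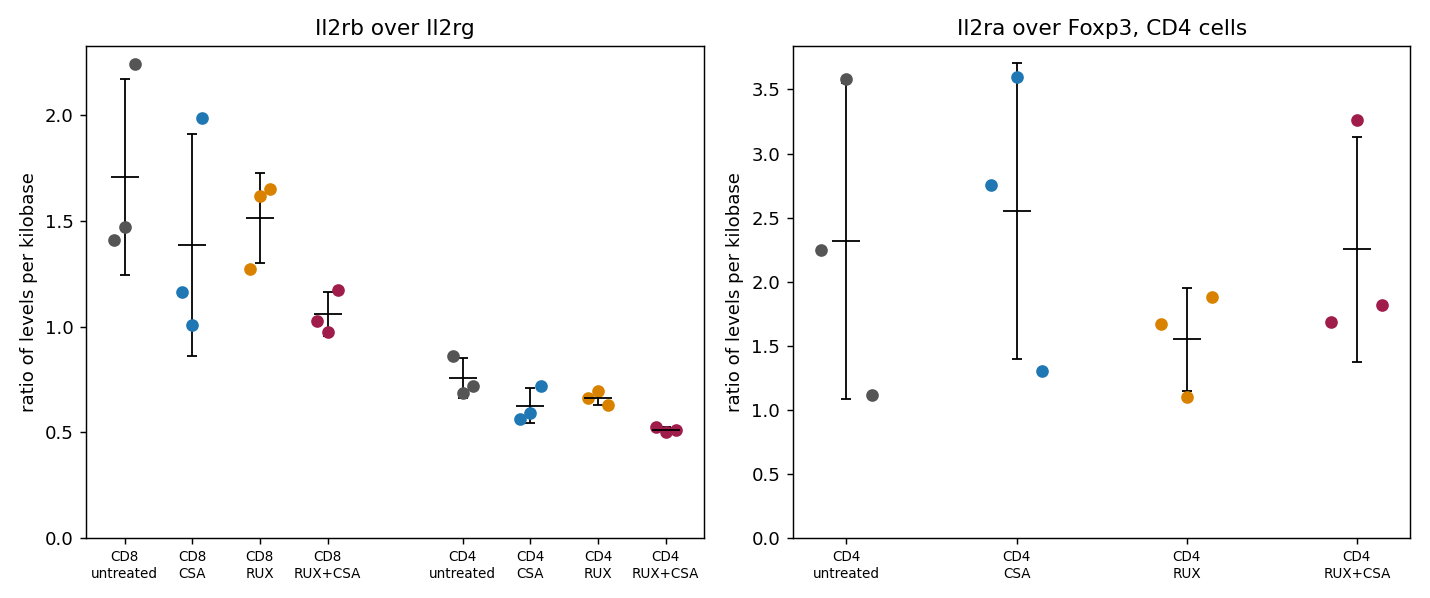
Ratio of levels per kilobase (y axis, from 0) of Il2rb to Il2rg in each library of both cell types (left) and of Il2ra to Foxp3 in CD4 libraries (right), by treatment (x axis); points are pools and bars are mean and SD of 3. In the left panel the CD4 RUX+CSA pools (0.502 to 0.525) are below every other pool.

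The cytokines that bind these receptors were mostly scarce in the T cells themselves, and none of the tested ligand genes (4 in CD8, 6 in CD4, of 8 listed) passed against untreated. Il21, a helper T cell cytokine, was at 152 ± 77.6, 148 ± 79.0, 165 ± 39.9 and 159 ± 37.3 CPM in untreated, CSA, RUX and RUX+CSA CD4 pools. In CD8 cells it was at 14.2 to 22.6 CPM untreated and at 2.48 to 3.36 CPM with both drugs. These ranges were apart, as were those of 43.4% of all genes, and no tested ligand gene passed in that contrast. Il2, the T cell growth factor, was at 3.55 ± 1.39 CPM in untreated CD4 cells and 1.56 ± 0.454 CPM in those given both drugs, and Il9 had no read pair in any library, which allows up to 0.0868 to 0.177 CPM.

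Among other chains of the family, Il13ra1, a partner of Il4ra in the receptor for IL-13, rose in CD8 cells with both drugs from 0.279 ± 0.147 to 3.31 ± 0.936 CPM (log2 3.50, SE 0.52, adjusted p = 0.00427), 1 of 2 tested genes of that list. Markers of other cells moved in the same libraries. Those that rose were 8 of 8 tested basophil and mast cell genes (sums of 1.85 to 3.33 CPM untreated and 52.0 to 86.2 CPM with both drugs), 6 of 8 erythroid, 5 of 9 B cell, 4 of 7 stem and progenitor (8.90 to 29.4 and 38.6 to 40.7 CPM), 4 of 13 neutrophil and 1 of 7 NK cell genes. Of 13 macrophage genes 2 rose and 3 fell, and 0 of 5 platelet genes passed. The part of other cells in the rise of Il13ra1 was not tested. Against untreated, both drugs called 7.94% of all genes higher and 7.73% lower in CD8 cells, and 1.02% and 0.744% in CD4 cells, and CSA called 1% and 0.478% in CD4 cells, which are the backgrounds for the lists that follow. Of 15 kinases, STATs and adaptors, 3 passed in CD8 cells with both drugs, all higher: Jak1, the kinase on the cytokine-specific chains (log2 0.41, SE 0.12, adjusted p = 0.0346), the adaptor Grb2 (log2 0.26) and Irs2, an adaptor used by the IL-4 receptor (log2 1.59). The list's median was 0.0066 beside -0.024 over all genes. Jak3, the kinase on the common gamma chain, was at 390 ± 18.9 CPM untreated and 365 ± 53.7 CPM with both drugs.

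In CD4 cells 2 of the 15 passed with both drugs, Irs2 (log2 2.16, adjusted p = 0.0154) and Stat6, the IL-4 signal carrier (284 ± 7.42 to 382 ± 9.98 CPM, log2 0.43, adjusted p = 0.04), and Irs2 alone passed with CSA (log2 1.91, adjusted p = 0.0261). For the joined cyclosporine effect Stat5a, which carries IL-2 and IL-7 signals, was lower (log2 -0.28, SE 0.078, adjusted p = 0.0444), while Stat6 and Irs2 were higher. Medians of the list in these 3 comparisons lay between -0.027 and 0.096.

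Genes that STAT5 is known to control or that follow these cytokines (22 listed, all tested) were called in both directions. In CD8 cells with both drugs their counts were near the shares of all genes, 7.94% higher and 7.73% lower. In CD8 cells with both drugs 2 rose and 2 fell: Cish, a feedback inhibitor of IL-2 signalling at 99.5 ± 50.4 CPM untreated, fell to 33.0 ± 0.653 CPM (log2 -1.60, SE 0.37, adjusted p = 0.0222) and Id2, a factor of effector cells, fell (log2 -0.81, adjusted p = 0.0116), while Bcl6, a repressor that STAT5 opposes, rose (log2 0.87, adjusted p = 0.0355), as did the cyclin Ccnd3 (log2 0.66, adjusted p = 0.0417). In CD4 cells with both drugs Socs2, another feedback inhibitor at 38.9 ± 17.7 CPM untreated, fell to 15.0 ± 4.32 CPM (log2 -1.37, adjusted p = 0.044) and Cdk6 fell (log2 -0.83, adjusted p = 0.0297), as did Foxp3, and Bcl6 rose (log2 1.52, adjusted p = 0.00584). With CSA, Gzmb, the cytotoxic protease granzyme B, rose from 187 ± 37.3 to 504 ± 79.3 CPM (log2 1.43, adjusted p = 0.0112), and Foxp3 fell. The medians were -0.19, -0.17 and 0.17 in these 3 comparisons, beside -0.024, -0.0069 and 0.00044 over all genes.

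Of 10 negative regulators, the phosphatase gene Ptpn11 fell in CD8 cells with both drugs (log2 -0.60, adjusted p = 0.0143). That is 1 of 10, near the 7.73% of all genes that were lower. Sh2b3, an adaptor that restrains JAK signalling, rose in CD4 cells with CSA (log2 0.82, adjusted p = 0.0218) and RUX+CSA (log2 1.07, adjusted p = 0.00556). Of 22 regulators of receptor genes, 3 rose with both drugs in each cell type. They were Tcf7, Eomes and Gfi1b in CD8 (log2 1.25, 0.56 and 4.51) and Nfkb1, Foxp1 and Nfatc1, itself an NFAT factor, in CD4 (log2 0.51, 0.65 and 0.57). Foxp1, which restrains Il7r in T cells, also rose with CSA (log2 0.69, adjusted p = 0.0303). The medians of this list were 0.16 and 0.28. Gfi1b is also known from erythroid precursors, and erythroid genes summed to 6.37 to 32.3 CPM in untreated CD8 pools and 86.4 to 264 CPM in those given both drugs (6 of 8 tested rose), a part that was not tested. CD8 with CSA, CD8 with RUX and CD4 with RUX called 0% of all genes, so no list could have a member past the threshold there.

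Genes of T cell state were counted in the same comparisons. Of 15 naive and memory genes, 4 rose in CD8 cells with both drugs, among them Tcf7, Slamf6 (log2 0.52) and Id3 (log2 1.17, adjusted p = 0.00985). In CD4 cells 2 rose with RUX+CSA, Bach2, a repressor that holds cells in a resting state (5.98 ± 1.95 to 36.1 ± 5.64 CPM, log2 2.60, adjusted p = 0.000605), and Id3 (log2 1.29, adjusted p = 0.0304), and 2 with CSA, Bach2 (log2 2.02) and Satb1 (log2 1.17). The medians of this list were 0.91, 0.69 and 0.58 in these 3 comparisons. Of 15 regulatory T cell genes in CD4 cells, Foxp3 and Ikzf4 fell and Nt5e rose with RUX+CSA, and Foxp3, Tnfrsf9 and Itgae fell with CSA. In CD8 cells Capg rose with both drugs, 1 of 14 tested, near the 7.94% of all genes that were higher. Il7r, a naive and memory marker in its own right, did not pass in any of these comparisons.

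The genes whose levels followed each receptor most closely were sought among 8727 genes over 24 libraries, after subtracting the mean of each cell type, so that the points share treatment groups and depth. For Il7r they were Pik3ip1 (r = 0.90), Adgrl1 and Fam78a, for Il21r Agfg1 (r = 0.89), Mov10 and Slc39a4, and for Il15ra Gcdh (r = 0.89), Tap2 and Helq. For Il2rb they were Ahr (r = 0.87), Entpd1 and Ccrl2. Of these, Entpd1 had r = 0.94 in CD8 and 0.41 in CD4 libraries, and Ccrl2 had r = 0.97 in CD8 and 0.084 in CD4 libraries. For Il2rg they were Il27ra (r = 0.84), St3gal4 and Ctsd, and for Il4ra Fez2 (r = 0.80), Socs2 and Vrk1. For Il2ra they were Tlr1 (r = 0.79), Ncoa7 and Cish, with Ncoa7 at r = 0.36 in CD8 and 0.91 in CD4 libraries. Between the receptors the highest r over the 24 libraries was 0.72 for Il15ra with Il21r, then 0.71 for Il7r with Il4ra. Some pairs differed by cell type. Il2rb with Il21r had r = 0.89 in CD8 and 0.20 in CD4 libraries, and Il2ra with Il21r -0.096 and 0.83. Neighbours on a chromosome were not the closest over the 24 libraries. Il2ra with Il15ra had r = 0.38 (-0.061 in CD8, 0.57 in CD4) and Il4ra with Il21r -0.13 (-0.52 in CD8, 0.14 in CD4).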

How the data were processed

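SMART-Seq libraries of 24 pools of sorted T cells were sequenced. The deposited values are raw counts of read pairs, unscaled. Per the file headers, featureCounts 2.0.3 counted pairs over exons of a UCSC mm10 annotation, all libraries in 1 call and with no strand option. STAR and mm10 are named in the submitters' processing notes, with no version of STAR.

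TMM factors (0.929 to 1.05), the filterByExpr filter on low counts and the quasi-likelihood F test (robust, group means, two-sided) came from edgeR 4.0.16, run in R 4.3.3. Each cell type was fitted on its own 12 libraries (12684 genes in CD8, 13175 in CD4), and contrasts across cell types on all 24 (13476 genes). Benjamini-Hochberg adjustment was over all genes tested, at 0.05, and the SE comes from the F statistic. The 21 comparisons hold 147 tests of receptor genes. Levels are TMM-scaled CPM, per kilobase of the deposited gene length where genes are compared. DESeq2 1.42.0 and limma 3.58.1 (voom) were alternatives, as were the scaling, the filter, the libraries and, within a cell type only, an other-cell marker covariate. The code was tested on simulated data.

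The receptor genes are picked by name with no measured value in the rule, but they and the lists were proposed with earlier results of these data known. Named genes are the 7 receptors, up to 3 of the smallest p per list in a comparison with untreated, and the 3 most alike to each receptor by Pearson r of log2 CPM (prior count 2, mean of at least 3). Other genes are named after their values were seen. Nothing says that pools were processed apart, so p-values measure the spread between these pools. The limit from a count of 3 covers counting error only. Of the genes called in the naive and memory list, 1 is not reported here.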

Additional observations from a re-analysis of the deposited data

How the results depend on the processing

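Of the 147 receptor values, 109 were uncalled in every fit. Of the 19 called, 13 were called under every alternative, all of them CD8 against CD4, where the other-cell marker covariate was not among the alternatives. A further 19 were called under some alternative only. The sign changed somewhere for 49, never for a value called in either fit, and 28 of them changed with the other-cell marker covariate. The share of all genes called under each alternative is not given here, so the counts that follow have no background. The number of receptor genes called changed as follows, and the cause was not tested. With DESeq2 it went from 0 to 2 for RUX+CSA against untreated, 0 to 1 for CSA against untreated and 0 to 1 for RUX+CSA against RUX in CD4 cells. With no low-count filter it was 1 for the first and the last of these. With only the groups compared in the fit it was 1 in place of 0 for RUX+CSA against untreated in CD8 and 2 in place of 0 for RUX+CSA against RUX in CD4. Without CSA 6 and RUX 7 together it was 2 for RUX+CSA against untreated, 1 for RUX+CSA against RUX and 3 for the cyclosporine effect in CD8 (0 each with them), and 6 in place of 3 for CD8 against CD4 with RUX. With the other-cell marker covariate the cyclosporine effect in CD4 went from 2 to 0. Smaller moves in CD8 against CD4 were from 4 to 5 in untreated and 3 to 4 with RUX (DESeq2 and limma voom), 6 to 4 with CSA, 3 to 2 with RUX and 4 to 6 with RUX+CSA (only the groups compared), and 4 to 6 in untreated, 6 to 4 with CSA and 4 to 5 with RUX+CSA (without CSA 6 and RUX 7). DESeq2 moved the cyclosporine effect in CD4 from 2 to 3. Leaving out 1 pool at a time gave 0 to 1 for the cyclosporine effect in CD8, 0 to 2 in CD4 and 2 to 6 for CD8 against CD4 with RUX. No paired analysis was possible because every pool has its own number and no label links pools across groups. With 3 pools per group, the 95% intervals above set what could be seen. The lowest receptor level was 11.1 CPM against 0.177 CPM for 3 counts, so every receptor was detected in every library. The part of depth in the spread was not tested.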
